A study of Rattus norvegicus with 6 samples.

Results

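The IL-1 family members examined were 9 genes, chosen by symbol from the 30957 genes of the deposited table: the ligands Il1a, Il1b, Il18 and Il33, the antagonist ligand Il1rn, the receptor chains Il1r1, Il1rl1 and Il18r1, and the shared accessory chain Il1rap. Of these 9 genes, 8 had at least 1 count in some nerve and 6 were high enough to be tested. RNA-seq was conducted on 6 sciatic nerves of Sprague Dawley rats, 3 crushed (labelled injured) and 3 intact contralateral (labelled normal). Per the study's methods the rats were adult males and the proximal stumps were collected 4 days postinjury (dpi); the labels give no age, sex or time. The design text and the methods differ on the side of the lesion, and the labels do not say whether a crushed and an intact nerve with the same number came from 1 rat. The comparison addresses which genes changed in the nerve after crush, here for the IL-1 family.

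IL-1 family ligands are cytokines that are made by immune and barrier cells, glia and fibroblasts. IL-1α and IL-33 act as alarm signals released from damaged cells, whereas IL-1β and IL-18 are made as precursors that are cut by caspase-1 inside inflammasomes. A ligand binds its own receptor chain, an accessory chain then joins, and the pair recruits the adaptor MyD88 and the IRAK kinases to activate NF-κB and MAP kinases. In injured peripheral nerve, IL-1α and IL-1β are known as early signals of Wallerian degeneration.

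Each nerve held 24844371 to 27139360 counts in all. CPM here, also called normalized CPM, is the count scaled to the total of the tested genes after edgeR's TMM scaling. On this scale 3 counts, the limit that a count of 0 allows, corresponded to 0.110 to 0.121 CPM. These limits cover counting error only. The defining markers of nerve tissue were nearly absent: the Schwann cell genes S100b, Sox10 and Mbp had 0 to 3 counts in every nerve, although Pmp22 and Prx were well counted. Of 10 macrophage markers, Ptprc, Adgre1 and Cd163 had 0 counts in all 6 nerves. Cd68 (29 to 52 counts), Cd14 (49 to 84) and Csf1r (18 to 29) were low but counted in every nerve. These 3 were tested and did not pass (edgeR adjusted p = 0.732, 0.951 and 0.940). The summed level of the 10 was 3.94 to 5.61 CPM in intact and 4.43 to 6.30 CPM in crushed nerves. Of 7 fibroblast markers, Col1a2, Dcn and Lum were at 0, whereas Thy1 had 2431 to 3372 counts, Pdgfra 1114 to 1525 and Col1a1 293 to 537. All 4 mast cell markers and 4 of 5 neutrophil markers were at 0 as well. The 4 proliferation markers together reached 2851 to 3066 CPM in intact and 2722 to 2855 CPM in crushed nerves. In bulk RNA, fewer cells of a type and less RNA per cell cannot be told apart.

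Of the 4 activating ligands, 3 were at or near the limit of detection, whereas all 4 receptor chains were measured in every nerve. The 250 bases before the RefSeq start of the genes the comparisons turn on are shown, because NF-κB and AP-1 are the factors through which IL-1 receptors act and members of the family are themselves known to be induced by them. The windows are given 5′ to 3′ on the gene's strand, from RefSeq on the GRCr8 assembly. Il1r1 (chr9:50034133-50034382, + strand) was the one member that passed the test. Il36g (chr3:27346437-27346686, + strand) was the family gene outside the 9 with the largest rise. Among the receptor genes with a window, Il1rap (chr11:87704343-87704592, - strand, the second of its RefSeq starts) was the only one with a match, which is in capitals. No window was found for the receptor genes Il18rap and Il1r2.
Il1r1: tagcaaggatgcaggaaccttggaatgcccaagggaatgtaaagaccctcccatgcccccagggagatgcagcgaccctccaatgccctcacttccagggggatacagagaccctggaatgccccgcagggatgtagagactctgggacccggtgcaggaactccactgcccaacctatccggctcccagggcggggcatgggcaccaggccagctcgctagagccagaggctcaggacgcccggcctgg
Il1rap: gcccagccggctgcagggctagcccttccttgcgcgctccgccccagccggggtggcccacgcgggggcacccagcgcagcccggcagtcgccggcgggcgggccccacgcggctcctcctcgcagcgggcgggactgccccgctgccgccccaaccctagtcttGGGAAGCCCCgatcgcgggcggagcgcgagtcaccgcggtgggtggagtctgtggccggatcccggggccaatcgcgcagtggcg
Il36g: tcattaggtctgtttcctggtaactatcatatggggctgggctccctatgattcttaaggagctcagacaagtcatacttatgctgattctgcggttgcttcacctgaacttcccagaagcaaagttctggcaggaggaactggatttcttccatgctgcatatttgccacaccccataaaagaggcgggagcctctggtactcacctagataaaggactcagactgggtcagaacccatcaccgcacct

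The NF-κB consensus and the AP-1 motif TGANTCA were searched on both strands. All 9 members matched a RefSeq gene, with 11 windows. The NF-κB consensus was found in the 2 overlapping windows of Il1rap, where it is the same match, GGGAAGCCCC, with its first base 85 bases before the second start. The AP-1 motif was found in the window of Il1a alone among the members, with the first base of TGACTCA at 12 bases before the start. Among the other family genes with a window (9 of 12), Il36a held the NF-κB consensus and none held the AP-1 motif. Of all 33469 windows of this length, 4.24% held the NF-κB consensus and 6.34% the AP-1 motif. The printed windows of Il1r1 and Il36g held neither set of letters.

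Levels were compared between genes per length, as the authors' FPKM (counts scaled to gene length and library total). Il1rl1, which encodes ST2, the receptor for IL-33, was by far the highest of the 9 genes. Its FPKM was 137, 144 and 145 in the intact and 156, 155 and 154 in the crushed nerves, above 97.1% of the 17425 genes with at least 1 count, and it held 81.7% to 83.3% of the summed FPKM of the 9 members. In intact nerves it was followed by Il33 (9.91 to 10.6 FPKM), Il1r1 (9.68 to 9.89), Il1rap (6.67 to 7.76), Il18r1 (2.36 to 2.82) and Il1rn (0.592 to 1.14), and the ranges of neighbours in this order did not overlap. In crushed nerves Il1r1 (11.3 to 11.9 FPKM) stood above Il33 (8.57 to 8.73), and Il33 and Il1rap (7.23 to 8.64) could not be separated by their ranges. Il1a, Il1b and Il18 came last in both groups and could not be ordered among themselves.

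**Figure D1:**
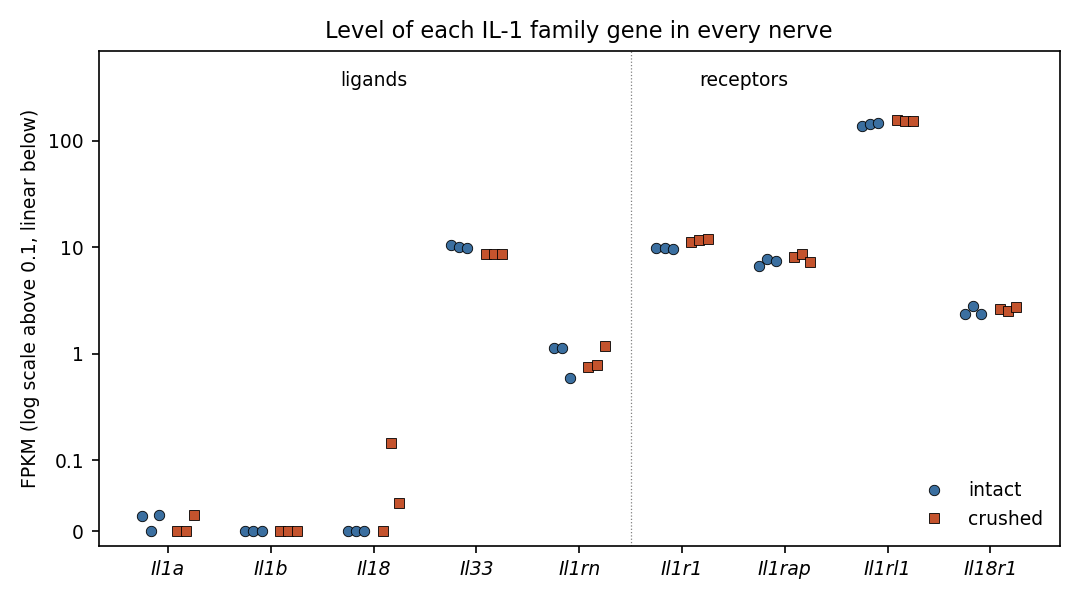
FPKM of each of the 9 IL-1 family genes in the 3 intact (blue circles) and 3 crushed (red squares) nerves, on an axis that is logarithmic above 0.1 and linear below. Il1rl1 sits at 137 to 156 FPKM in all 6 nerves, while Il1a, Il1b and Il18 lie at or near 0.

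Among the ligands, transcripts of the IL-1 agonists were close to absent from both groups. Il1b (Rnor_6.0 chromosome 3, 121876263 to 121882726), the inflammasome-processed cytokine that gives the family its best known activity, had 0 counts in all 6 nerves. Il1a (chromosome 3, 121825412 to 121836086), the membrane-associated and nuclear agonist, had 1, 0 and 1 counts in intact and 0, 0 and 1 counts in crushed nerves. Neither gene had more than 3 counts in any nerve, so no difference was detectable at this depth. Il18 (chromosome 8, 54993859 to 55016299), whose product drives interferon-γ production, had 0 counts in each intact nerve and 0, 4 and 1 counts in the crushed nerves. Only crushed nerve 2 stood above 3 counts, and crushed nerve 1 was at 0 like the intact nerves. No fold change was computed for these 3 genes.

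Il33 (chromosome 1, 248132090 to 248147029) was the one activating ligand counted in every nerve. It encodes the nuclear alarm cytokine that signals through ST2. The counts were 664, 660 and 602 in intact and 569, 575 and 532 in crushed nerves, or 25.2 ± 0.982 and 21.1 ± 0.215 normalized CPM (SD, n = 3 each). Every crushed nerve lay below every intact nerve, a fold of 0.837. The log2 fold change of -0.26 (SE 0.065, 95% interval -0.40 to -0.11) did not pass the test across all genes (edgeR's quasi-likelihood test, Benjamini-Hochberg adjusted p = 0.0639).

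Il1rn (chromosome 3, 1452644 to 1468614), which encodes the antagonist that occupies IL-1R1 without recruiting the accessory chain, was low in all nerves. Its counts were 59, 62 and 30 in intact and 42, 43 and 60 in crushed nerves, or 1.96 ± 0.652 and 1.84 ± 0.482 normalized CPM (SD, n = 3 each). The groups overlapped, with the lowest value in intact nerve 3. The log2 fold change was -0.11 with a 95% interval of -0.71 to 0.49 (edgeR adjusted p = 0.887). It was above 0 without intact nerve 1, intact nerve 2 or crushed nerve 1 (0.034, 0.046 and 0.0068). Because the Il1a and Il1b counts were at the floor, a ratio of antagonist to agonist transcripts could not be given.

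Il1r1 was higher in the crushed nerves, and it was the only 1 of the 9 members that passed the test. The gene (chromosome 9, 46962288 to 47036670) encodes the signalling receptor for IL-1α and IL-1β. The counts were 1263, 1310 and 1201 in intact and 1526, 1569 and 1476 in crushed nerves. In normalized CPM these were 49.9, 49.6 and 48.5 against 55.9, 57.8 and 58.9, with means of 49.3 ± 0.763 and 57.5 ± 1.53 (SD, n = 3 each). The groups did not overlap, and the rise was 16.5%. The log2 fold change was 0.22 (SE 0.049, 95% interval 0.11 to 0.33) with an edgeR adjusted p of 0.0374. The call was lost in 8 of 12 alternatives. The adjusted p was 0.0817 with the replicate block, and 0.0816 and 0.0857 with limma on log2(FPKM + 0.1) and log2(FPKM + 1). It was above 0.05 when intact nerve 2, intact nerve 3 or any 1 of the crushed nerves was left out, with values from 0.0907 to 0.156. The fibroblast markers Col1a1 and Col3a1 were lower in the same crushed nerves, with log2 fold changes of -0.69 and -1.76 (edgeR adjusted p = 6.62e-04 and 0.0268). The other tested fibroblast markers, Pdgfra and Thy1, had log2 fold changes of 0.19 and -0.23 and did not pass (edgeR adjusted p = 0.166 and 0.0552), and the summed level of the 7 fibroblast markers was 186 to 199 CPM in intact and 163 to 182 CPM in crushed nerves. Their part in the Il1r1 difference was not tested.

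Il1rl1 (chromosome 9, 47134034 to 47182170) had 12970, 14127 and 13350 counts in intact and 15661, 15453 and 14174 counts in crushed nerves. The normalized values were 529 ± 14.3 and 569 ± 3.90 CPM (SD, n = 3 each), and every crushed nerve lay above every intact nerve. The log2 fold change of 0.11 (SE 0.037, 95% interval 0.026 to 0.19) did not pass the test (edgeR adjusted p = 0.173). The gene is known to give a membrane receptor and a soluble decoy form from alternative transcripts, which counts per gene cannot tell apart.

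Il18r1 and Il1rap did not pass either. Il18r1 (chromosome 9, 47185443 to 47219175), the ligand-binding chain for IL-18, had 239, 296 and 235 counts in intact and 282, 271 and 269 in crushed nerves. Its groups overlapped, and its log2 fold change was 0.041 (95% interval -0.18 to 0.26, edgeR adjusted p = 0.882). Il1rap (chromosome 11, 77463954 to 77593207), the accessory chain shared by IL-1R1, ST2 and the IL-36 receptor, had 604, 729 and 653 counts in intact and 779, 827 and 638 in crushed nerves. The highest values were in crushed nerves 1 and 2, whereas crushed nerve 3 fell within the intact range. The log2 fold change was 0.12 (95% interval -0.065 to 0.30, edgeR adjusted p = 0.525).

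**Figure D2:**
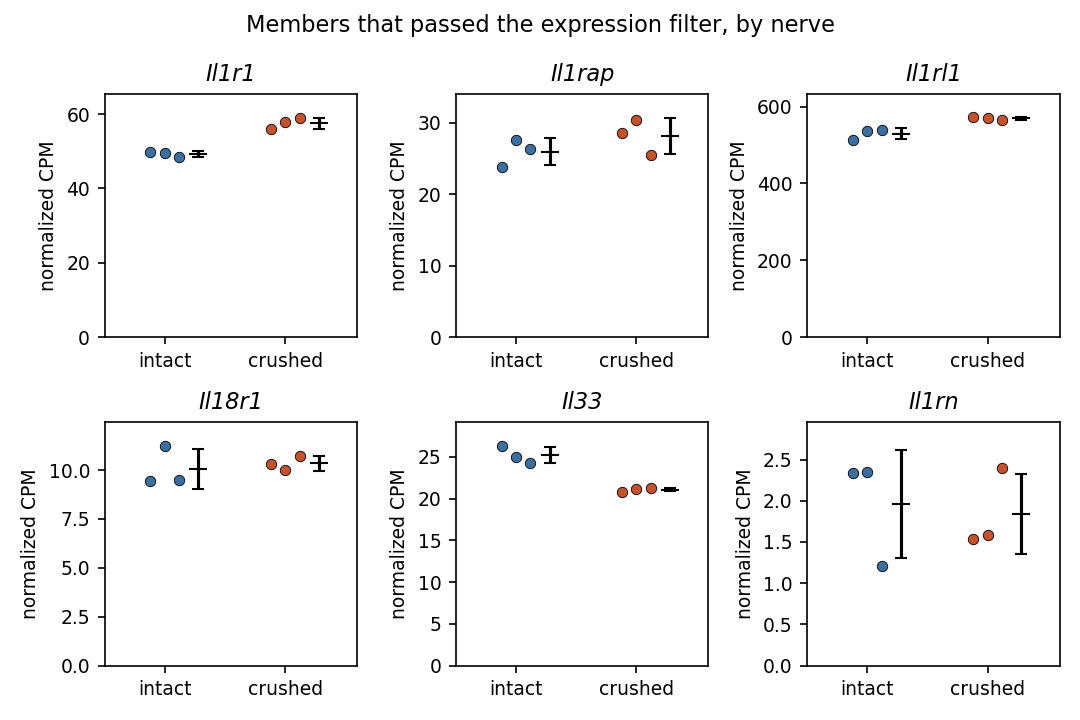
Normalized CPM of the 6 tested members in each nerve, 1 panel per gene with its own axis from 0, intact in blue and crushed in red, with the group mean as a horizontal mark and the SD as whiskers beside the points (n = 3 each). Il33 (25.2 against 21.1 CPM) and Il1r1 (49.3 against 57.5 CPM) lie on opposite sides of their intact values with no overlap between groups, while Il1rn, Il1rap and Il18r1 overlapped.

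Across the 6 tested members, 1 was called higher and 0 lower at an adjusted p under 0.05. Over all 12393 genes tested, 3.12% were called in either direction and 1.47% were called higher. The stricter limits of the study's methods (a change of more than 1 on the log2 scale in either direction and p under 0.001) called 0 members and 0.282% of all genes. At an unadjusted p under 0.05, 2 members (Il1r1 and Il1rl1) were higher and 1 (Il33) was lower, against 16.2% of all genes. Crushed and intact nerves did not overlap for 3 of the 6 members and for 23.0% of all genes tested. An exact permutation test of 3 against 3 nerves gave p = 0.1 for these 3 genes, the smallest it can give. Groups that do not overlap always give this value, so it is no further result. The median log2 fold change of the 6 was 0.073, beside -0.0017 over all genes tested.

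**Figure D3:**
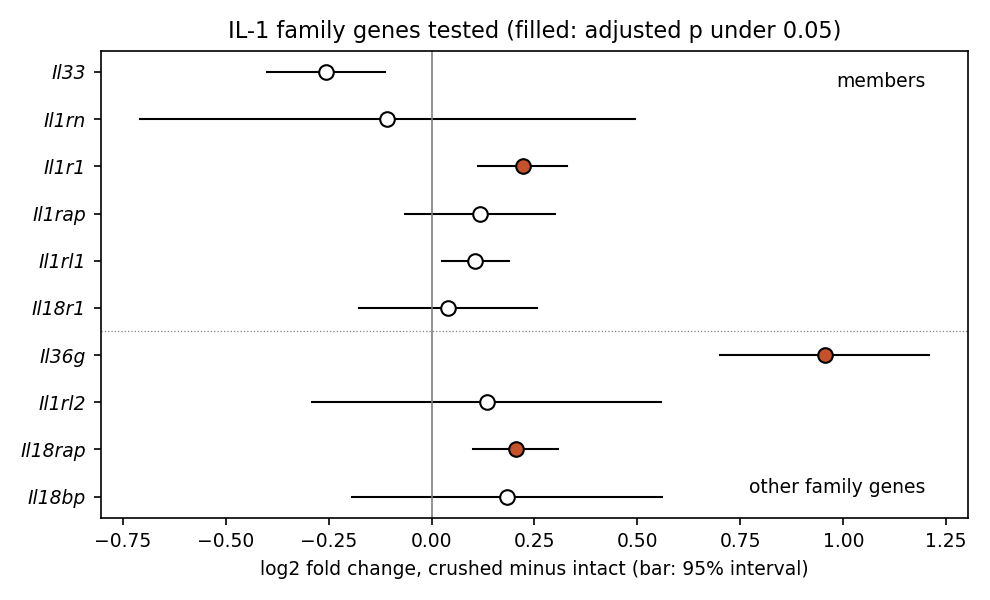
Log2 fold change, crushed minus intact, of the 6 tested members and of the other tested IL-1 family genes, with 95% intervals from the edgeR fit as bars and genes at an adjusted p under 0.05 filled (n = 3 per group). Il1r1 (0.22) lies above 0 and Il33 (-0.26) below it, and Il36g (0.95) stands farthest from 0.

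Because ST2 and IL-33 are receptor and ligand, their FPKM values were also set beside each other within each nerve, a choice made after the values were seen and described here with no test. The ratio of Il1rl1 to Il33 was 12.9, 14.2 and 14.7 in intact and 18.2, 17.8 and 17.6 in crushed nerves. Its mean went from 13.9 ± 0.90 to 17.9 ± 0.302 (SD, n = 3 each), and the groups did not overlap. Every crushed nerve was higher in Il1rl1 and lower in Il33, so this separation was fixed by those values and is no further result. The ratio of Il1r1 to its accessory chain Il1rap was 1.48, 1.27 and 1.3 in intact and 1.39, 1.34 and 1.64 in crushed nerves, where the groups overlapped. Transcript ratios say nothing of the amounts of protein at the cell surface.

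Of 12 other IL-1 family genes, 11 were in the table, 5 of these (Il36a, Il36rn, Il1f10, Il1rapl1 and Sigirr) had 0 counts in all nerves, and 4 were tested. Il36g and Il18rap were higher in the crushed nerves, 2 of 4 against 1.47% of all genes, and 0 were lower. Il36g (chromosome 3, 1285664 to 1291865), an activating ligand of the IL-36 group known from skin and other barriers, had 165, 145 and 161 counts in intact and 352, 286 and 312 in crushed nerves. Its level went from 6.17 ± 0.586 to 11.96 ± 1.25 normalized CPM (SD, n = 3 each) with no overlap, a fold of 1.94. The log2 fold change was 0.95 (SE 0.114, 95% interval 0.70 to 1.21, edgeR adjusted p = 9.18e-04). The related ligand Il36b had 1, 3 and 0 counts in intact and 5, 4 and 1 in crushed nerves, too low for the test.

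Among the receptors and binding proteins of this list, Il18rap was the one that passed the test. Il18rap (chromosome 9, 47225585 to 47258503), the accessory chain of the IL-18 receptor, had 1579, 1640 and 1636 counts in intact and 1984, 1985 and 1851 in crushed nerves. This rise of 0.20 on the log2 scale (SE 0.047, 95% interval 0.10 to 0.31, edgeR adjusted p = 0.0427) left no overlap between the groups. The adjusted p was above 0.05 without intact nerve 2 (0.123) or without crushed nerve 1, 2 or 3 (0.148, 0.160 and 0.139). It was also above 0.05 with the replicate block (0.0751), with no filter (0.0514) and with limma on log2(FPKM + 0.1) and log2(FPKM + 1) (0.0910 and 0.0950). Per length its level was 4.14 to 5.47 times that of its partner chain Il18r1 over the 6 nerves. Il1rl2, the receptor chain for IL-36 ligands, had 40 to 55 counts in intact and 50 to 68 in crushed nerves, with a log2 fold change of 0.13 (95% interval -0.29 to 0.56, edgeR adjusted p = 0.783). Il18bp, the soluble binder that neutralises IL-18, had 81 to 128 and 108 to 146 counts, with a log2 fold change of 0.18 (95% interval -0.19 to 0.56, edgeR adjusted p = 0.649). The decoy receptor Il1r2 had 2 counts in crushed nerve 1 and 0 elsewhere.

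A set of 6 receptor genes are neighbours on chromosome 9, in the order Il1r2, Il1r1, Il1rl2, Il1rl1, Il18r1 and Il18rap, within 417.5 kb of Rnor_6.0 as the table gives their coordinates. The mean FPKM along this order was 0, 9.82, 0.447, 142, 2.52 and 11.9 in intact nerves. In crushed nerves it was 0.0171, 11.6, 0.497, 155, 2.63 and 13.9. High and low genes thus alternated along the cluster in both groups. Il1rl1 and Il18r1 are only 3272 bases apart in these coordinates. Of the 6 genes, Il1r1 and Il18rap passed the test as higher, where 1.47% of all genes tested did. Each of these calls held in 4 of 12 alternatives. Il1rl2, Il1rl1 and Il18r1 were tested without passing, and Il1r2 was too low for the test.

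**Figure D4:**
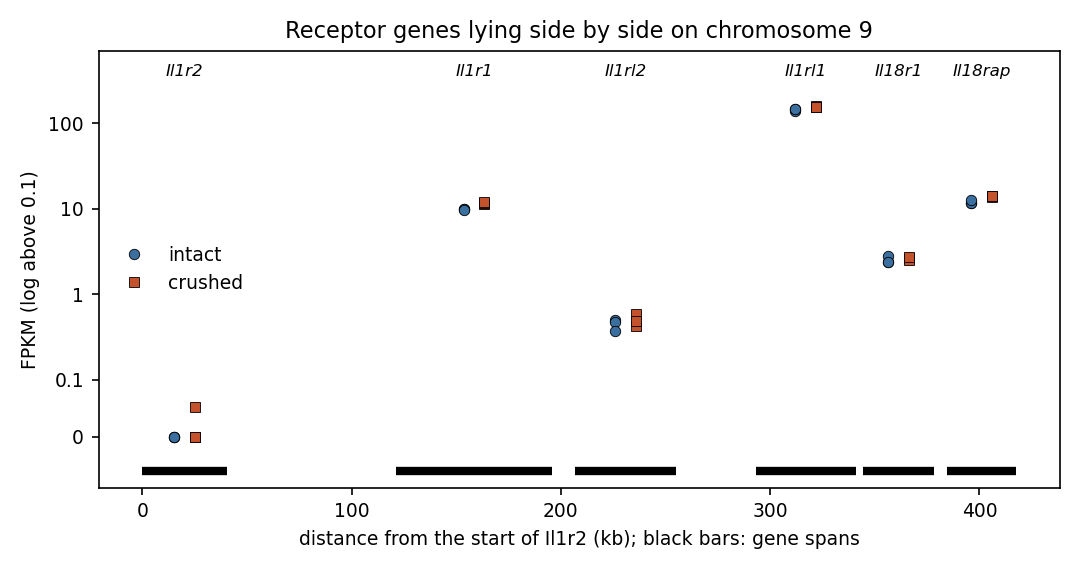
FPKM of the 6 receptor genes of the chromosome 9 cluster in each nerve (n = 3 per group, blue circles intact and red squares crushed) against distance in kb from the start of Il1r2, on an axis that is logarithmic above 0.1, with black bars for the gene spans. Il1rl1 (mean 142 FPKM in intact and 155 in crushed nerves) stands far above its neighbours in both groups.

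Among the genes that process or release IL-1 family cytokines, Casp4 was the one that passed the test. Of 16 listed, 3 had 0 counts in all nerves (Nlrp1b, Nlrc4 and Panx1) and 9 were tested, of which 1 was higher and 0 were lower, beside 1.47% of all genes called higher and 3.12% in either direction. Casp4, the caspase of the non-canonical inflammasome that senses intracellular lipopolysaccharide, had 127, 133 and 122 counts in intact and 198, 185 and 195 in crushed nerves. It rose by 45.6% without overlap, a log2 fold change of 0.54 (SE 0.105, edgeR adjusted p = 0.0189). The adjusted p was above 0.05 without intact nerve 2 or 3 (0.0592 and 0.0558) or without crushed nerve 1 or 3 (0.0829 and 0.0825). The tested genes ranged from -0.14 to 0.54 in log2 fold change with a median of 0.0091. Casp1, which encodes the caspase that cuts pro-IL-1β and pro-IL-18, had 0, 3 and 0 counts in intact and 9, 5 and 0 in crushed nerves and was too low for the test.

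None of the 18 tested genes of the signalling chain from MyD88 and the IRAK kinases to the IKK complex and MAP kinases passed the adjusted threshold in either direction with edgeR's quasi-likelihood test. At an unadjusted p under 0.05, 0 were higher and 2 were lower (Irak1 and Tab2, both with a log2 fold change of -0.11), beside 16.2% of all genes in either direction, so that this count is no result about the list. The tested genes ranged from -0.15 to 0.29 in log2 fold change, with a median of 0.036.

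The genes known to be induced by IL-1 signalling had the largest median change of the 5 lists, although the same genes also respond to tumour necrosis factor and to Toll-like receptors. The lists were chosen with earlier results of these data known, so this ranking is description only. Of 26 listed, 24 were in the table and 19 were tested, with 10 higher, 1 lower and 8 not passing, beside 1.47% of all genes called higher and 3.12% in either direction. The study's limits called 6 of the 19, beside 0.282% of all genes. Their median log2 fold change was 0.53, within a range of -1.01 to 1.79. Nfkbia, which encodes the NF-κB inhibitor IκBα, went from 839, 844 and 729 counts in intact to 2668, 2689 and 2506 counts in crushed nerves, a log2 fold change of 1.65 (SE 0.055, edgeR adjusted p = 1.40e-07).

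A further 4 of these genes had the smallest p-values after Nfkbia. Birc3, a ubiquitin ligase of the NF-κB pathway, went from 145, 139 and 123 to 475, 490 and 500 counts, a log2 fold change of 1.79 (edgeR adjusted p = 2.89e-06). The neutrophil chemokine Cxcl1 went from 472, 566 and 485 to 1455, 1395 and 1541 counts, a log2 fold change of 1.48 (edgeR adjusted p = 3.19e-06). Tnfaip3, which encodes the NF-κB feedback inhibitor A20, went from 470, 497 and 423 to 939, 965 and 923 counts, a log2 fold change of 0.97 (edgeR adjusted p = 1.96e-05). The collagenase gene Mmp13 was the one that fell, from 9828, 10143 and 8628 to 5306, 4826 and 4671 counts, a log2 fold change of -1.01 (edgeR adjusted p = 2.56e-06). Crushed and intact nerves did not overlap in these 5 genes, which follows from picking them by smallest p. The same held for 16 of the 19 tested targets, beside 23.0% of all genes tested. Il6, a classical target, stayed at 0 to 3 counts in all nerves.

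**Figure D5:**
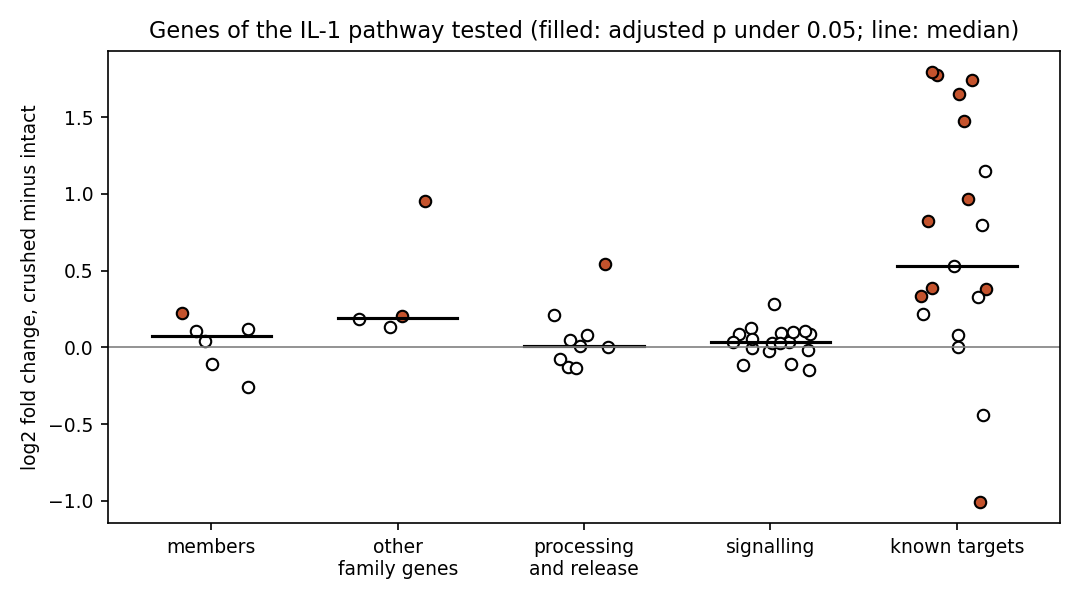
Log2 fold change, crushed minus intact, of each tested gene in the member list and the 4 pathway lists, with genes at an adjusted p under 0.05 filled and a line at each list's median. The signalling genes lie between -0.15 and 0.29, while the known targets spread from -1.01 to 1.79.

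The 3 tested genes whose log2 normalized CPM followed that of Il1r1 most closely over the 6 nerves were Gbp4, Slc1a1 and Anapc2, with Pearson correlations of 0.999, 0.997 and 0.994. Of all genes tested, 336 had a correlation with Il1r1 above 0.9. The 6 points share their libraries and fall into 2 groups, so these values describe likeness of pattern and carry no test.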

How the data were processed

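RNA-seq was performed by the authors on 3 crushed and 3 intact nerves. The deposited table holds whole-number counts for 30957 Ensembl genes, which were taken to be raw read counts. It also holds FPKM values that the authors scaled by gene length and total count. The submitters' processing notes name HISAT2, StringTie 1.3.0 and Rnor_6.0, and counting strand was not given in the sources used here. The study's methods describe rRNA removal and then RNase R, which digests linear RNA, whereas the labels describe a column kit and name neither step. If used, RNase R could affect the levels of linear mRNAs.

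All 12 value columns were matched to nerves by title, with 0 others. From the counts, the quasi-likelihood test of edgeR 4.0.16 (in R 4.3.3 with limma 3.58.1, TMM scaling, its expression filter and no replicate block) was run over 12393 of 30957 genes, with Benjamini-Hochberg adjustment over all of them. P-values measure the spread between these nerves, since the labels do not say that each came from a separate animal. Replicate nerves differed by more than counting noise (chi-square per degree of freedom 3.38 to 12.3), so each counted as 1 sample. The script was tested on simulated counts. Alternatives were the replicate block, DESeq2 1.42.0, RLE normalization, no filter, limma on log2(FPKM + 0.1) and log2(FPKM + 1), and leaving out each nerve.

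The members, lists and tests were chosen with earlier results of these data known. Named were all family genes, in the other lists up to 5 genes with an adjusted p under 0.05 by smallest p, and the 3 genes most like Il1r1. Genes named outside this rule (Casp1, Il6, Irak1, Tab2, the genes at 0 and the markers) were chosen after their values were seen. RefSeq windows (GRCr8) were matched by symbol, and coordinates were not converted between builds.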

Additional observations from a re-analysis of the deposited data

How the results depend on the processing

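The rise of Il1r1 kept its direction in all 12 alternatives (log2 fold change 0.20 to 0.24) but had an adjusted p under 0.05 in 4 of them, with DESeq2, RLE normalization, no filter and without intact nerve 1. It missed the threshold with the replicate block (0.22, adjusted p = 0.0817), with limma on log2(FPKM + 0.1) (0.24, adjusted p = 0.0816) and on log2(FPKM + 1) (0.22, adjusted p = 0.0857), and without any 1 of the other 5 nerves (0.20 to 0.24 and adjusted p = 0.0308 to 0.156 over all 6 omissions). The count of members called higher was accordingly 0 with the block and with both limma fits, and 0 to 1 when nerves were left out. Over all genes tested, same-numbered nerves did not deviate together (correlations -0.00965, -0.00262 and 0.0709). Counting noise can hide a shared animal in such values, so they cannot decide whether the numbers are pairs. The numbers were not taken as pairs because the labels do not say what they stand for. The other 5 members passed in none of the 12, with Il33 at -0.28 to -0.22. Il1rn changed sign to 0.034 without intact nerve 1, 0.046 without intact nerve 2 and 0.0068 without crushed nerve 1 (range -0.35 to 0.046). Other family genes called higher numbered 1 rather than 2 with the block, no filter and both limma fits, and 1 to 2 when nerves were left out (1 without intact nerve 2 or any 1 crushed nerve). Il36g passed in 12 of 12 and Il18rap in 4 of 12. The count for processing genes was 0 to 1 (0 without intact nerve 2, intact nerve 3, crushed nerve 1 or crushed nerve 3), with Casp4 passing in 8 of 12. Known targets called higher numbered 8 to 9 when nerves were left out. Over all genes, 387 were called, 300 with the block, 242 and 256 with limma on log2(FPKM + 0.1) and log2(FPKM + 1), and 177 to 400 with a nerve left out (253 without intact nerve 2, and 177, 185 and 204 without crushed nerves 1, 2 and 3). The cause of these differences was not tested. With counts near 0, this depth does not separate absence from low levels of Il1a, Il1b and Il18.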
